A study of Mus musculus with 6 samples.

Results

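The transcripts of 6 collagen chains were described in mouse bone marrow (BM). They are *Col4a1* and *Col4a2* of type IV collagen, *Col6a1*, *Col6a2* and *Col6a3* of type VI collagen, and *Col8a1* of type VIII collagen. They were taken by name, as the chains of these types, out of the 621 genes in the expression table that the authors deposited. A further 8 chains of the same types were looked for and none was among the 621 genes. The table held 17 collagen chains of all types.

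The KO samples were BM cells of *Phc2* knockout mice (replicates 4, 8 and 9), and the WT samples were BM cells of wild-type mice (replicates 1, 3 and 7). All mice had the C57BL/6 background, were 8 weeks old and were bred from *Phc2*+/- parents, and the cells came from femurs and tibias. Phc2 is a subunit of a Polycomb repressive complex, and the knockout was not limited to a cell type. The titles and source names give the KO samples as knockouts, whereas their genotype field gives them as heterozygotes, and *Phc2* itself was not analysed here, so the genotype was not checked on its transcript. Poly(A)-selected RNA was sequenced as 1 library per sample. Nothing in the sources assigns the libraries to separate mice, and the p-values therefore measure the spread between libraries only, which may be technical.

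Type IV collagen is the network-forming collagen of basement membranes, the sheets that underlie endothelium and surround pericytes and smooth muscle. Its most widespread trimer holds the α1 chain, encoded by *Col4a1*, and the α2 chain, encoded by *Col4a2*, with more of the α1 chain. Type VI collagen forms beaded microfibrils that lie between basement membranes and the fibrils of the interstitial matrix, and its classical trimer takes an α1, an α2 and the much larger α3 chain, encoded by *Col6a1*, *Col6a2* and *Col6a3*. Type VIII collagen is a short network-forming collagen of vessel walls, and *Col8a1* encodes its α1 chain. In BM these matrices belong to sinusoids, arterioles and the reticular stroma, whose cells are a small share of all marrow cells.

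*Col4a1* (gene ID 12826) lies on chromosome 8 of GRCm38 from 11198423 to 11312889, and *Col4a2* (gene ID 12827) lies beside it from 11312805 to 11449287. The pair is transcribed in opposite directions, and their first exons overlap by 22 bases between the starts annotated in GENCODE release M21, and by 85 bases by the limits of the RefSeq genes. The stretch around the shared bases is shown because the reads of both genes meet there. The capitals mark the shared bases, each line gives the strand of its gene, and the position is chr8:11312801-11312830.
*Col4a1*: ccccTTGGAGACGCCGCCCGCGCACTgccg
*Col4a2*: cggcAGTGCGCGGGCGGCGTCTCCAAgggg
The library kit does not mark the strand, so reads that lie in this overlap cannot be given to one of these genes. The overlap is short beside the longest annotated coding transcripts, of 6615 bases for *Col4a1* and 6450 bases for *Col4a2*.

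*Col6a2* (gene ID 12834) and *Col6a1* (gene ID 12833) are neighbours on chromosome 10, from 76595756 to 76623630 and from 76708792 to 76726044, on the same strand with 85161 bases between them. *Col6a3* (gene ID 12835) lies apart on chromosome 1 from 90766860 to 90844001, and *Col8a1* (gene ID 12837) lies on chromosome 16 from 57624256 to 57754737. The bases upstream of the outermost annotated start of these 4 genes, from the RefSeq promoter table for GRCm38, are shown because the results below set the levels of these chains against each other. Capitals mark the GC box GGGCGG, read here on the opposite strand as CCGCCC.
*Col6a1*, chr10:76726169-76726294, minus strand: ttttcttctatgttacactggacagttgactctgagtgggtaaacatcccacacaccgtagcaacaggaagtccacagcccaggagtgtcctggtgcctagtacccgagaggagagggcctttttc
*Col6a2*, chr10:76623631-76623880, minus strand: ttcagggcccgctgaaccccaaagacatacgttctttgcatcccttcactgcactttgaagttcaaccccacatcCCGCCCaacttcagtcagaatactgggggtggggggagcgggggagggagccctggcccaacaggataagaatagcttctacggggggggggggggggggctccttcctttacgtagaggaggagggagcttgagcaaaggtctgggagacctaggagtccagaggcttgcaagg
*Col6a3*, chr1:90844002-90844221, minus strand: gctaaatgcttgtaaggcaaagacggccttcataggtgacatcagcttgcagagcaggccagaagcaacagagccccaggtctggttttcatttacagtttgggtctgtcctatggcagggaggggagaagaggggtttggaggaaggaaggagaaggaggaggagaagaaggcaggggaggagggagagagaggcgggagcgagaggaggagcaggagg
*Col8a1*, chr16:57754738-57754987, minus strand: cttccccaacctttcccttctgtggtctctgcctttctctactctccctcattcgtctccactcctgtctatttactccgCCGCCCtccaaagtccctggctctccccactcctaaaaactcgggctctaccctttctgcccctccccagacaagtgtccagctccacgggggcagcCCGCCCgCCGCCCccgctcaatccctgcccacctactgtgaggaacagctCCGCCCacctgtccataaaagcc
In the whole windows of 300 bases, which run 50 bases past the start, *Col8a1* had the GC box 4 times, *Col4a2* 3 times, *Col4a1* once, and *Col6a1* and *Col6a3* did not have it on either strand. The GC box of *Col4a1* lies in the bases shared with *Col4a2* and is 1 of the 3 counted for that gene. *Col6a2* has windows at 2 annotated starts, with 1 GC box in the upstream one and 3 in the downstream one. Over 32851 promoter windows of this length, 35.7% held it at least once. The letters CCAAT were found once in the window of *Col4a1* and once in that of *Col4a2*, which overlap, in no window of the other 4 genes, and in 37.4% of all windows. The letters TATAAA were found in no window of the 6 genes and in 13.6% of all windows. Both strands were searched in each case.

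The levels are given as FPKM, the fragments per kilobase of exon scaled to all mapped fragments of the library, which allows levels of different genes to be compared per length. The authors had selected the 621 genes on these same libraries, a gene being kept when 1 or more of the 9 KO to WT pairs reached a fold of 2. Genes that did not differ in any pair are thus not in the table, p-values of KO against WT are not independent evidence, and the table does not serve to check the tissue. The 6 libraries fell into a further division that crosses the genotype. *Xist*, the noncoding RNA of the inactive X chromosome, was between 74.6 and 113 FPKM in KO replicate 4 and WT replicates 1 and 3, and was at most 0.0192 FPKM in KO replicates 8 and 9 and WT replicate 7. The labels used here give no sex. Depth is unknown, since only FPKM were analysed, and no counting interval is given.

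All 6 chains had a lower mean in KO BM cells than in WT BM cells, and none passed the test of KO against WT. WT replicates 1 and 3 had the highest level of each chain, and KO replicate 4 was next. WT replicate 7 lay near KO replicates 8 and 9 for the type IV chains, *Col6a1* and *Col6a2*. As a ratio, it stood further above them for *Col6a3*, and furthest for *Col8a1*, but below KO replicate 4. The summed level of the 6 chains was 26.6, 8.56 and 9.30 FPKM in KO replicates 4, 8 and 9, against 38.2, 41.6 and 9.76 FPKM in WT replicates 1, 3 and 7. In a bulk sample of BM, fewer cells that express a collagen and less of its RNA per cell cannot be told apart.

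*Col4a1* had 5.69, 2.16 and 2.36 FPKM in KO replicates 4, 8 and 9, against 8.94, 10.3 and 2.51 FPKM in WT replicates 1, 3 and 7. *Col4a2* had 4.09, 1.40 and 1.62 FPKM in the same KO libraries, against 6.04, 6.49 and 1.72 FPKM in the WT libraries. For both chains, KO replicates 8 and 9 were the lowest of the 6 libraries, by a small margin below WT replicate 7, and KO replicate 4 was above WT replicate 7, so the groups overlapped. The mean of *Col4a1* was 3.40 ± 1.98 FPKM in KO and 7.26 ± 4.18 in WT (SD over 3 libraries, here and below), a log2 fold change of -0.83 on the scale of log2(FPKM + 1), with a standard error of 0.52. The mean of *Col4a2* was 2.37 ± 1.50 FPKM in KO and 4.75 ± 2.64 in WT, a log2 fold change of -0.72 with a standard error of 0.50. The difference between the means was smaller than the SD of the WT libraries for both chains.

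*Col6a1* had 8.00, 2.48 and 2.58 FPKM in KO replicates 4, 8 and 9, against 9.96, 10.8 and 2.37 FPKM in WT replicates 1, 3 and 7. *Col6a2* had 6.24, 1.80 and 2.01 FPKM in the KO libraries, against 8.18, 8.59 and 1.87 FPKM in the WT libraries. *Col6a3* had 1.06, 0.338 and 0.318 FPKM in the KO libraries, against 1.85, 1.96 and 0.454 FPKM in the WT libraries. The lowest library differed between these chains. It was WT replicate 7 for *Col6a1*, KO replicate 8 for *Col6a2* and KO replicate 9 for *Col6a3*. The mean of *Col6a1* was 4.35 ± 3.16 FPKM in KO and 7.69 ± 4.63 in WT, a log2 fold change of -0.65 with a standard error of 0.55. The log2 fold change was -0.68 with a standard error of 0.54 for *Col6a2* and -0.59 with a standard error of 0.44 for *Col6a3*. The level of *Col6a3* lay below 1 FPKM in 3 libraries, where the added 1 makes a fold change on this scale smaller than that of the FPKM. Its mean FPKM was 0.571 ± 0.421 in KO and 1.42 ± 0.838 in WT, which is 0.402 times the WT mean. The transcript of *Col6a3* is long, at 10106 bases for the longest coding one, so that a given FPKM stands for more fragments than it would on the other chains, of 4100 to 6615 bases.

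*Col8a1* had 1.55, 0.392 and 0.417 FPKM in KO replicates 4, 8 and 9, against 3.26, 3.45 and 0.847 FPKM in WT replicates 1, 3 and 7. As a ratio, KO replicates 8 and 9 were further below WT replicate 7 than for any other of the 6 chains, while KO replicate 4 was above it, so the groups overlapped here too. The mean was 0.785 ± 0.659 FPKM in KO and 2.52 ± 1.45 in WT. The log2 change, -0.93 with a standard error of 0.47, was the largest of the 6, and its unadjusted p of 0.0586 from limma was the 19th smallest of the 621 genes. The highest library had 8.80 times the lowest, against 4.54 to 6.15 times for the other chains. Its longest coding transcript has 5108 bases.

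**Figure D1:**
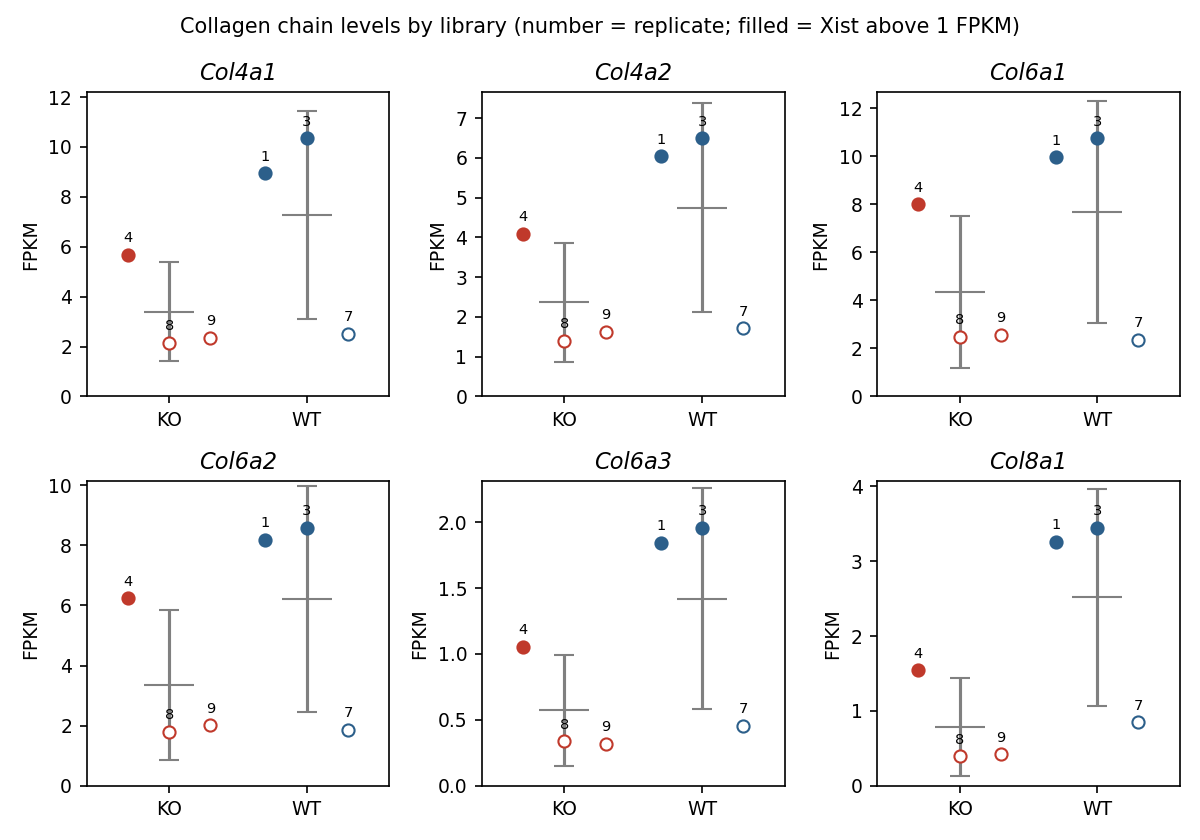
FPKM of the 6 collagen chains in the 3 KO and 3 WT libraries, one panel per gene with its own axis from 0. Points are libraries with the replicate number beside them, filled where *Xist* was above 1 FPKM, and the grey bars are the mean and SD of 3 libraries. WT replicates 1 and 3 are highest in every panel, KO replicate 4 is next, and WT replicate 7 lies lower. It is close to KO replicates 8 and 9 except in the panels of *Col6a3* and *Col8a1*. WT replicate 7 is at 0.454 FPKM for *Col6a3*, against 0.338 and 0.318 FPKM in KO replicates 8 and 9. For *Col8a1* it is at 0.847 FPKM, against 0.392 and 0.417 FPKM.

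By limma on log2(FPKM + 1), fitted over the 621 genes with Benjamini-Hochberg adjustment, the adjusted p of KO against WT was 0.598 for each of the 6 chains. None of the 6 passed 0.05, beside 0.0% of the table, where the smallest adjusted p was 0.517. None of the 6 had an unadjusted p under 0.05 from limma, against 14 of the 621 genes. None had KO and WT libraries that did not overlap, beside 1.29% of the table lower in KO and 5.96% higher in KO. As a median, the log2 fold change was -0.70 over the 6 chains and -0.35 over the 621 genes, of which 384 were lower and 237 higher in mean in KO. Scaling each library to the same median moved the median of the table to -0.23, and the 6 chains then lay between -0.84 and -0.50. In the test, the standard errors rest more on the spread over the table, with 17.8 prior degrees of freedom, than on the own spread of a gene, with 4.

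The folds through which the chains entered the table came mostly from the pairs of KO replicates 8 and 9 with WT replicates 1 and 3. Of the 9 pairs of libraries, *Col4a1*, *Col4a2*, *Col6a1*, *Col6a2* and *Col8a1* each had 4 with a level in KO at least 2 times lower, in the authors' normalized log2 values. *Col6a3* had 2 such pairs, with folds of 2.12 and 2.06, which is near the minimum of 2. In the pair of KO replicate 4 and WT replicate 7, all 6 chains were higher in KO. The fold was 2.54 times higher in KO for *Col6a1* and 2.39 times higher for *Col6a2*, so that these chains were in the table for folds in both directions.

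Within a genotype, the libraries differed by more than the genotypes did. The mean of WT replicates 1 and 3 was 3.65 to 4.49 times the level of WT replicate 7 over the 6 chains. The level of KO replicate 4 was 2.52 to 3.82 times the mean of KO replicates 8 and 9. With a limma term for *Xist* beside genotype, all 6 chains were higher in the libraries with *Xist*, by 0.81 to 1.55 on the log2 scale, at adjusted p between 0.00989 and 0.0237. In the same fit, 21.3% of the 621 genes were higher with *Xist*. Every pair through which the 6 chains entered the table joined a library with *Xist* to one without. The p-values of the *Xist* term thus rest on values used for the selection and are not independent evidence. This division was known from earlier results of these data when the term was chosen. Whatever else differs between these libraries cannot be told apart from it.

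Set against libraries of the same *Xist* status, the chains differed in how far KO lay from WT. Among libraries with *Xist*, KO replicate 4 had 0.772 times the mean of WT replicates 1 and 3 for *Col6a1*, 0.745 times for *Col6a2*, 0.654 times for *Col4a2* and 0.590 times for *Col4a1*. It had 0.555 times that mean for *Col6a3* and 0.461 times for *Col8a1*. All 6 were lower in this 1 KO library. Among libraries without *Xist*, the mean of KO replicates 8 and 9 was 1.07 times the level of WT replicate 7 for *Col6a1*, 1.02 times for *Col6a2*, 0.900 times for *Col4a1* and 0.881 times for *Col4a2*. It was 0.722 times for *Col6a3* and 0.478 times for *Col8a1*. *Col8a1* thus stood at less than 0.5 times WT in both divisions, and the type IV chains and *Col6a1* and *Col6a2* were within 0.881 to 1.07 times WT where *Xist* was absent. The interaction of genotype and *Xist* did not pass for any of the 6 chains, with adjusted p from limma between 0.444 and 0.566. With *Xist* as a term, the KO to WT log2 change was -0.58 for *Col8a1* with a standard error of 0.21 and -0.13 for *Col6a1* with a standard error of 0.26, and the adjusted p of these and the other chains was at least 0.705.

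The α1 and α2 chains of type IV collagen, and those of type VI collagen, kept nearly fixed ratios over libraries whose levels differed several times. *Col4a1* had 1.39, 1.54 and 1.45 times the FPKM of *Col4a2* in KO replicates 4, 8 and 9, against 1.48, 1.59 and 1.46 times in WT replicates 1, 3 and 7. The SD of the log2 ratio over the 6 libraries was 0.070, beside SDs of 1.02 and 1.01 for the log2 FPKM of *Col4a1* and *Col4a2* themselves. The mean log2 ratio in KO minus that in WT was -0.05 (exact permutation test, two-sided, p = 0.4), and the groups overlapped. *Col6a1* had 1.28, 1.37 and 1.28 times the FPKM of *Col6a2* in the KO libraries, against 1.22, 1.25 and 1.27 times in the WT libraries. The SD of this log2 ratio was 0.058, beside 1.07 and 1.11 for *Col6a1* and *Col6a2*. All 3 KO libraries had a higher ratio than all 3 WT libraries, but with a gap of only 0.014 on the log2 scale, and the mean difference was 0.07 (exact permutation p = 0.1, adjusted p = 0.133 over the 4 ratios tested). A ratio to *Col6a2* that did not overlap and was higher in KO was found for 2.74% of the other 620 genes.

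*Col6a3* did not keep to the other type VI chains across the genotypes. It had 0.132, 0.136 and 0.124 times the FPKM of *Col6a1* in KO replicates 4, 8 and 9, against 0.185, 0.182 and 0.192 times in WT replicates 1, 3 and 7. The 3 KO libraries lay close together, as did the 3 WT libraries, and the groups were apart by 0.42 on the log2 scale at their nearest, although the level of *Col6a1* differed 3.17 times between KO replicate 4 and the other KO libraries. The mean ratio was 0.131 ± 0.00654 in KO and 0.186 ± 0.00491 in WT, and the log2 difference of -0.51 is a fold of 0.701. By exact permutation, two-sided, p was 0.1, which is the smallest that 3 libraries against 3 can give, and 0.133 when adjusted over the 4 ratios tested. The difference thus did not pass 0.05, which this permutation test cannot reach with 3 libraries a group.

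The same held against *Col6a2*. This ratio, and the share given below, follow largely from the nearly fixed ratio of *Col6a1* to *Col6a2* and are not separate evidence. *Col6a3* had 0.169, 0.188 and 0.158 times the FPKM of *Col6a2* in the KO libraries, against 0.226, 0.228 and 0.243 times in the WT libraries, a log2 difference of -0.44 (exact permutation p = 0.1, adjusted p = 0.133). Of the summed FPKM of the 3 type VI chains, *Col6a3* made up 6.91%, 7.32% and 6.49% in KO replicates 4, 8 and 9, against 9.23%, 9.20% and 9.69% in WT replicates 1, 3 and 7. The log2 difference of *Col6a3* to *Col6a1* was -0.48 among libraries with *Xist* and -0.56 among those without, so that it was about as large in either division. It was taken on FPKM with nothing added. On log2(FPKM + 1) the difference was 0.07, since the added 1 outweighs *Col6a3* where it is below 1 FPKM. Which exons of *Col6a3* the reads cover was not examined, and its value is given per gene, so forms of the transcript could not be told apart.

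**Figure D2:**
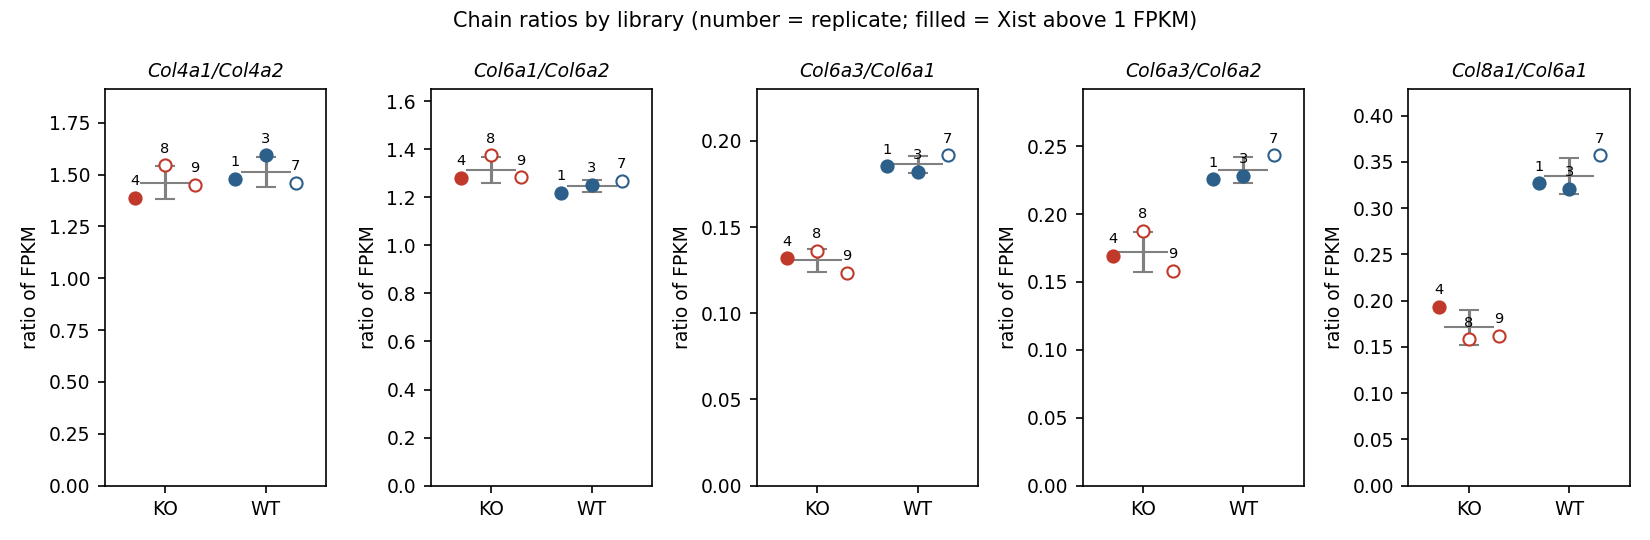
Ratios of FPKM between chains in the 3 KO and 3 WT libraries, one panel per ratio with its own axis from 0. Points are libraries with the replicate number, filled where *Xist* was above 1 FPKM, and the grey bars are the mean and SD. *Col4a1* to *Col4a2* overlaps between the groups, *Col6a1* to *Col6a2* differs slightly, and *Col6a3* to *Col6a1*, *Col6a3* to *Col6a2* and *Col8a1* to *Col6a1* are lower in all 3 KO libraries than in all 3 WT libraries.

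**Figure D3:**
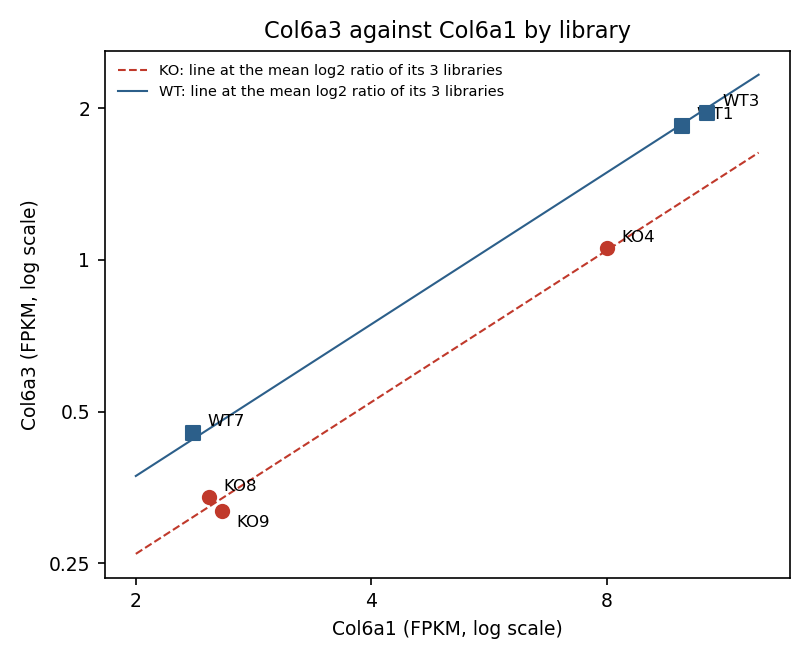
FPKM of *Col6a3* against that of *Col6a1* in each library, both on log axes, with KO as circles and WT as squares. Each line has the mean log2 ratio of its group, with KO at 0.701 times WT, and the libraries of a group lie along their line over the whole range of levels.

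Set against *Col6a1* on FPKM with nothing added, *Col8a1* was also lower in all KO libraries. It had 0.193, 0.158 and 0.162 times the FPKM of *Col6a1* in KO replicates 4, 8 and 9, against 0.327, 0.321 and 0.357 times in WT replicates 1, 3 and 7. The log2 difference was -0.97, a fold of 0.509. Its ratio to *Col4a1* was 0.272, 0.182 and 0.177 in the KO libraries, against 0.365, 0.334 and 0.338 in the WT libraries, and did not overlap either. *Col6a3* to *Col4a1* overlapped, at 0.186, 0.157 and 0.135 in KO against 0.206, 0.189 and 0.181 in WT, with KO replicate 4 above WT replicate 7. *Col8a1* was below 1 FPKM in KO replicates 8 and 9 and WT replicate 7. On log2(FPKM + 1) its log2 fold change was -0.93, beside -0.65 for *Col6a1* and -0.83 for *Col4a1*, which are smaller differences than on FPKM. Taken on that scale, both ratios of *Col8a1* overlapped between the groups. These ratios between collagen types were chosen after seeing the data and were not tested.

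Other genes of the table were lower relative to *Col6a1* as well. A ratio to *Col6a1* that did not overlap and was lower in KO was found for 22 of the other 620 genes, or 3.55%, and 3 of these were *Col6a2*, *Col6a3* and *Col8a1*. Ordered by the gap between the groups, *Col8a1* was at rank 1 and *Col6a3* at rank 4. Against *Col6a2* there were 16 such genes, or 2.58%, with *Col8a1* at rank 1 and *Col6a3* at rank 5. The genes lower relative to *Col6a1* took in 6 of the 11 endothelial markers in the table (*Kdr*, *Flt4*, *Emcn*, *Plvap*, *Cldn5* and *Aplnr*), and 3 of the 11 relative to *Col6a2* (*Kdr*, *Flt4* and *Cldn5*). Relative to *Col6a1* they also took in the collagen-degrading proteases *Ctsk* and *Mmp13* and the protease inhibitor *Timp1*, of 5 genes of that kind, and none of the 8 fibril-forming collagens or the 9 osteoblast markers. All of these ratios share the level of *Col6a1* or of *Col6a2*, so the genes are not separate observations. They were taken on FPKM with nothing added, also for genes below 1 FPKM. The part of these cell types in the ratios was not tested.

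Matrix and stromal genes of the table were mostly high in the same libraries. Beside all 6 chains and 21.3% of the table, 7 of the 8 fibril-forming collagens, 6 of the 6 genes of collagen biosynthesis and 11 of the 11 endothelial markers in the table passed 0.05 after adjustment by limma as higher in the libraries with *Xist*. So did 5 of the 9 osteoblast markers and 1 of the 4 adipocyte markers. The table was selected on the same libraries, so these counts are not independent evidence. Genes of a list are given by count and median, and none of the genes in these lists passed 0.05 for KO against WT by limma, as for the table. Of 11 fibril-forming collagen chains, 8 were in the table, all lower in mean in KO, with a median log2 fold change of -0.82. *Col1a1*, a chain of type I collagen of bone and tendon, had 215.5, 26.6 and 31.6 FPKM in KO replicates 4, 8 and 9, against 471, 284 and 23.0 FPKM in WT replicates 1, 3 and 7. Its lowest library was WT replicate 7, which was not so for 5 of the 6 chains described here. *Col1a2* and *Col5a3* had log2 fold changes of -1.28 and -0.70. Of 19 chains of further collagen types, 3 were in the table (*Col10a1*, *Col12a1* and *Col22a1*), with a median of -0.55.

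Of 28 other components of basement membranes, 3 were in the table, all lower in mean in KO, with a median of -0.64. *Hspg2*, which encodes perlecan, the heparan sulfate proteoglycan that binds type IV collagen, had 1.67, 0.529 and 0.634 FPKM in KO replicates 4, 8 and 9, against 3.20, 2.89 and 0.545 FPKM in WT replicates 1, 3 and 7. *Nid1*, whose product nidogen links laminin to type IV collagen, averaged 1.56 ± 0.667 FPKM in KO and 2.66 ± 1.21 in WT. *Sparc*, a secreted protein that binds type IV and fibrillar collagens, averaged 37.4 ± 26.0 FPKM in KO and 80.6 ± 63.6 in WT. Of 26 genes of microfibrils, elastic fibres and proteins that bind type VI collagen, 7 were in the table, all lower in mean in KO, with a median of -0.50. *Bgn*, which encodes the type VI collagen-binding proteoglycan biglycan, had 37.7, 14.2 and 16.2 FPKM in KO replicates 4, 8 and 9, against 48.9, 45.3 and 17.5 FPKM in WT replicates 1, 3 and 7. The order of the libraries was like that of the collagen chains, with WT replicates 1 and 3 high and KO replicate 4 between. *Dcn* and *Lum*, small collagen-binding proteoglycans, had log2 fold changes of -0.87 and -1.16.

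Of 27 genes of collagen folding, export and cross-linking, 6 were in the table, all lower in mean in KO (median -0.72). *Serpinh1*, the collagen chaperone HSP47, averaged 10.1 ± 6.29 FPKM in KO and 23.8 ± 15.3 in WT. *Pcolce*, an enhancer of procollagen processing, and *Lox*, the cross-linking lysyl oxidase, had log2 fold changes of -0.71 and -0.82. Of 19 collagen receptors, only *Cd93* was in the table, a receptor for matrix proteins, with 20.0, 23.4 and 22.0 FPKM in KO against 43.3, 30.8 and 21.4 FPKM in WT. It differed from the chains in that KO replicate 4 was the lowest library. Nor did it pass as higher with *Xist* (adjusted p = 0.624 from limma), unlike the endothelial markers, and which cells express it here was not tested. Of 19 matrix proteases and inhibitors, 5 were in the table, all lower in mean in KO (median -0.77). *Ctsk*, the collagenase of osteoclasts, averaged 6.26 ± 4.26 FPKM in KO and 17.3 ± 11.5 in WT. *Mmp13* and *Mmp14*, proteases that cleave fibrillar collagens, had log2 fold changes of -1.08 and -0.39.

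Markers of cells known to make these collagens were read beside the chains. Of 21 endothelial markers, 11 were in the table, all lower in mean in KO, with a median of -0.70, the value of the 6 chains. Their summed level was 12.0 to 32.7 FPKM in KO and 14.1 to 56.8 in WT. *Cdh5*, the cadherin of endothelial junctions, had 3.75, 2.30 and 1.78 FPKM in KO replicates 4, 8 and 9, against 7.19, 7.52 and 2.47 FPKM in WT replicates 1, 3 and 7. *Plvap*, a protein of fenestrated and sinusoidal endothelium, and *Sox18*, an endothelial transcription factor, both had log2 fold changes of -0.92. Of 15 markers of pericytes and smooth muscle, 5 were in the table, all lower in mean in KO, with a median of -0.54, and 4 of the 5 were higher with *Xist*. They had a summed level of 8.91 to 17.1 FPKM in KO and 13.5 to 20.1 in WT. *Myl9*, a myosin light chain of smooth muscle, had 7.34, 2.21 and 2.25 FPKM in KO replicates 4, 8 and 9, against 6.79, 8.18 and 3.31 FPKM in WT replicates 1, 3 and 7, a log2 fold change of -0.61. *Acta2*, smooth muscle actin, did not follow the chains and was highest in WT replicate 7, at 7.89 FPKM, where the collagen chains were low, and *Mcam* had a log2 fold change of -0.08.

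Of 15 markers of reticular stromal cells, 3 were in the table (median -0.41), with a summed level of 20.1 to 47.1 FPKM in KO and 18.4 to 52.2 in WT. *Lepr*, the leptin receptor that marks them, averaged 2.83 ± 1.38 FPKM in KO and 4.10 ± 1.69 in WT, and *Igfbp5* had a log2 fold change of -0.51. Of 15 osteoblast markers, 9 were in the table, all lower in mean in KO (median -0.61), and their sum was 89.7 to 480 FPKM in KO and 83.7 to 986 in WT. *Bglap*, which encodes osteocalcin, averaged 56.7 ± 65.4 FPKM in KO and 150.1 ± 133.8 in WT, and its neighbour copy *Bglap2* averaged 24.5 ± 27.8 FPKM in KO and 67.4 ± 58.8 in WT. Reads of these near-identical copies may be split between them. Of 13 fibroblast markers, 5 were in the table (median -0.62), with a sum of 14.3 to 36.1 FPKM in KO and 17.2 to 46.5 in WT. *Thy1*, which T cells express too, was the one with a higher mean in KO. Of 10 adipocyte markers, 4 were in the table, 3 lower and 1 higher in KO by log2 fold change (median -0.06). Their sum was 41.2 to 75.7 FPKM in KO and 30.4 to 80.7 in WT. *Fabp4*, *Adipoq* and *Lpl* had log2 fold changes of -0.21, -0.09 and -0.04. Of 17 skeletal muscle markers, none was in the table. No marker in the table was at 0 in any library, and the part of these cells in the levels of the collagen chains was not tested.

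**Figure D4:**
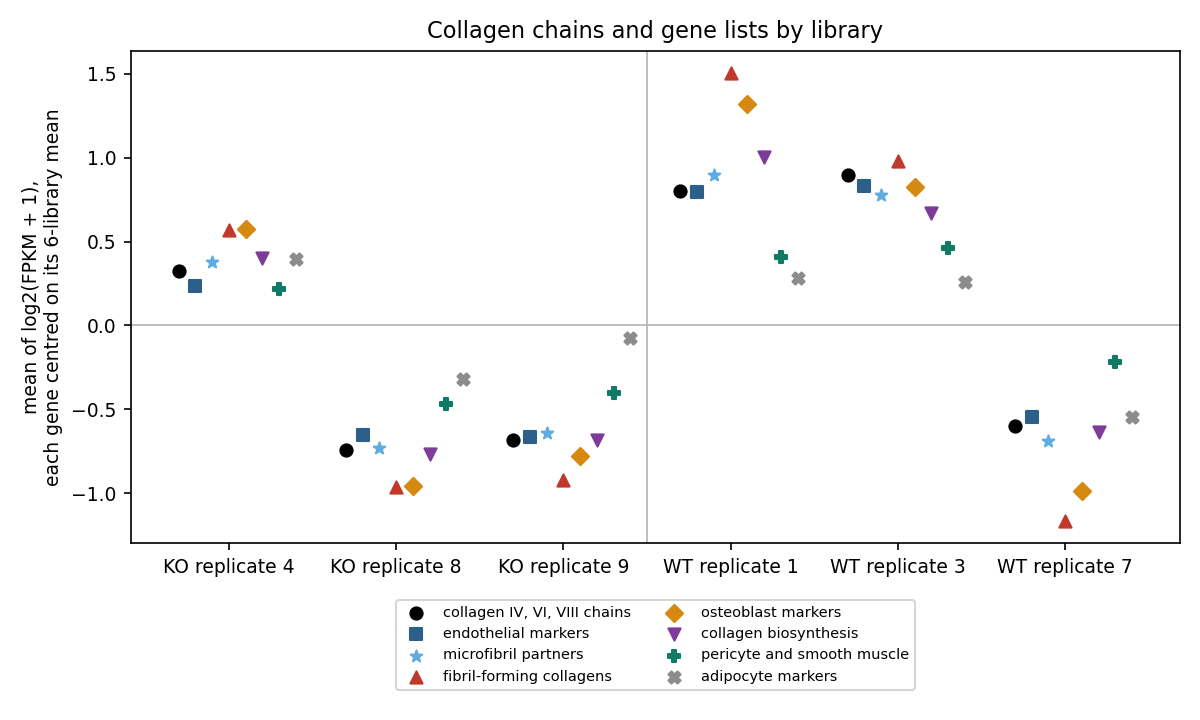
Mean of log2(FPKM + 1) over the genes of each list, each gene centred on its mean of the 6 libraries, in the KO libraries on the left and the WT libraries on the right. The endothelial markers and the microfibril partners both lie close to the 6 collagen chains in every library, at 0.24 and 0.38 beside 0.32 for the chains in KO replicate 4, while fibril-forming collagens and osteoblast markers spread further, up to 1.50 and 1.32 in WT replicate 1, and adipocyte markers spread less.

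Of the 6 genes with the profile most like that of the chains, 3 were in the list of endothelial markers (*Kdr*, *Cldn5* and *Emcn*). That list had 11 genes among the 621 of the table. Likeness was measured as the root mean square difference over the 6 libraries between the log2(FPKM + 1) of a gene and the mean of the 6 chains, each centred on its own mean, and the median over the table was 0.63. The nearest genes outside the 6 were *S100a16* at 0.078, *Kdr* at 0.089, *Cldn5* at 0.091, *Emcn* at 0.091, *Gja1* at 0.093 and *Fstl1* at 0.094. *Kdr* encodes a receptor of vascular endothelial growth factor, *Cldn5* a claudin of endothelial tight junctions, *Emcn* a sialoglycoprotein of venous and sinusoidal endothelium and *Gja1* the gap junction protein connexin 43. *Kdr* had 2.41, 0.747 and 0.808 FPKM in KO replicates 4, 8 and 9, against 3.80, 3.71 and 1.03 FPKM in WT replicates 1, 3 and 7. As for the type IV chains, KO replicates 8 and 9 were lowest and WT replicates 1 and 3 highest. Of the 6 chains themselves, *Col4a2* was the closest to their mean, at 0.025, and *Col6a3* the farthest, at 0.22. This measure depends on the scale, since genes below 1 FPKM move little on log2(FPKM + 1). It also places genes with a wider spread between libraries far away, such as *Sparc* at 0.65 and *Col1a1* at 1.10.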

How the data were processed

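Poly(A)-selected RNA of BM cells was sequenced in 3 KO and 3 WT libraries, grouped by title and source name. FPKM values were deposited by the authors for each gene and sample, made with HISAT2 version 2.0.5 on mm10 and StringTie version 1.3.3b. The authors also deposited log2 values, made from FPKM by a normalization which these sources do not name, with folds between libraries and enrichment tables of GO terms and KEGG pathways, which were not used as results. The pairs of libraries were counted on the log2 values.

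KO and WT were compared on log2(FPKM + 1) with limma (version 3.58.1, under R version 4.3.3) using an intensity trend and Benjamini-Hochberg adjustment over the 621 genes, all of which were above 0 in at least 3 libraries. The step was tested on simulated data with independent errors. Those data had no division of the libraries like that by *Xist*, so the step was not tested under the structure seen here. No count model fits FPKM. Chain ratios were compared by exact permutation of the 6 libraries with scipy version 1.17.1, and genes called not overlapping had all KO values above or below all WT values.

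The 6 chains, the 15 gene lists and the tests were chosen with earlier results of these data known. Some lists share genes and are not separate readings. *Col1a1* is in the lists of fibril-forming collagens and osteoblast markers, and *Adipoq* in those of reticular and adipocyte markers. *Dcn* and *Lum* are in those of microfibril partners and fibroblast markers. The genes named were the 6 chains, the 3 genes of each list with the highest mean FPKM, the 6 with the nearest profile, and *Xist*; genes named for their ratio to *Col6a1*, and *Clec14a*, *Nrep* and *Gpm6a*, were chosen after their values were seen. Sequences and coordinates are of RefSeq on GRCm38, the assembly of mm10, and were matched for all 6 genes. The alternatives were another pseudocount, filter, scaling, variance prior, threshold or *Xist* term, the authors' log2 values, and leaving out each library. Ratios between collagen types, ratios of all genes to *Col6a1* and *Col6a2*, and the interaction with *Xist* were added after seeing the data.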

Additional observations from a re-analysis of the deposited data

Results flagged for a closer look

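*Col6a1* was lower in KO among the libraries with *Xist* above 1 FPKM, where KO replicate 4 had 0.772 times the mean of WT replicates 1 and 3, and higher among the others, where the mean of KO replicates 8 and 9 was 1.07 times WT replicate 7. By FPKM, each KO library of one division lay on the other side of WT from those of the other division. In the authors' normalized log2 values KO replicate 8 was 1.003 times lower than WT replicate 7, so that the opposite side rests on FPKM for that library. The interaction term did not pass (adjusted p = 0.566 from limma), and the first division holds 1 KO library and the second 1 WT library.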

How the results depend on the processing

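Of 89 alternative values for the log2 fold changes of the 6 chains, all had the same direction and the same side of the threshold as the values reported. They lay between -1.58 with a pseudocount of 0.1 and -0.13 with *Xist* as a term. Another threshold, filter or variance prior leaves the fold change itself unchanged, so the direction of those values was fixed in advance. The number of chains past the threshold was 0 under each alternative, and from 0 to 0 without one library. Without WT replicate 7 the chains lay between -1.36 and -0.92 with a smallest adjusted p of 0.104 from limma, and without WT replicate 3 between -0.71 and -0.33, so that the size moves with single WT libraries. *Col6a3* was not tested where a mean of at least 1 FPKM was required. Of the 621 genes, 1 passed without KO replicate 4 and 1 without KO replicate 9, and none otherwise.

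Of 40 alternative values for the 4 ratios, 5 had the opposite direction. With a pseudocount of 1 the log2 difference was 0.067 for *Col6a3* to *Col6a1* and 0.10 for *Col6a3* to *Col6a2*, and with the authors' log2 values it was 0.081 and 0.10. Both scales compress values below 1 FPKM. For *Col4a1* to *Col4a2* it was 0.035 among libraries without *Xist*, and the cause was not tested. Leaving out one library at a time, the log2 differences were -0.09 to -0.01 for *Col4a1* to *Col4a2*, 0.04 to 0.09 for *Col6a1* to *Col6a2*, -0.54 to -0.47 for *Col6a3* to *Col6a1* and -0.50 to -0.38 for *Col6a3* to *Col6a2*. No paired analysis was possible because the KO and WT libraries share no replicate number. The depth is unknown, so the counting error of *Col6a3* and *Col8a1*, the lowest of the chains, could not be given.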

Other observations

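Beside *Col8a1* and *Col6a3*, the genes with the widest gap between the groups in their ratio to *Col6a1* were *Clec14a*, *Nrep* and *Gpm6a*, chosen after their values were seen and not tested. *Clec14a*, an endothelial lectin-like receptor, had 0.549, 0.128 and 0.172 FPKM in KO replicates 4, 8 and 9, against 1.10, 1.52 and 0.259 FPKM in WT replicates 1, 3 and 7. Its ratio to *Col6a1* had a log2 difference of -0.95, beside -0.97 for *Col8a1*. The difference was -0.91 for *Nrep* and -0.80 for *Gpm6a*. *Clec14a*, *Nrep* and *Gpm6a* each averaged below 1 FPKM over the 6 libraries.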
